A study of Mus musculus with 22 samples.

Results

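The genes followed here mark alveolar type 1 (AT1) cells and were measured in sorted lung epithelial cells (ECs): Ager, Hopx, Pdpn, Aqp5, Rtkn2, Cav1, Igfbp2, Clic5, Emp2 and Vegfa. These 10 genes were chosen by name, with earlier results of these data known, and all were found by their Ensembl identifiers among the 54373 genes of both count tables. The study compared WT mice with AhR-/- mice, a knockout of the aryl hydrocarbon receptor, and with CYP1B1-/- mice, a knockout of one cytochrome P450 enzyme that this receptor induces. ECs were taken at steady state or after house dust mite (HDM) exposure, which gave 6 groups: 4 WT libraries, 3 labelled AhR-/- (replicates 1, 3 and 4) and 3 labelled CYP1B1-/- (replicates 2, 3 and 4) at steady state, and 4 of each genotype after HDM. The mice were of both sexes, older than 7 weeks and backcrossed to C57BL/6. Those given HDM were sensitized 1 time, challenged on 4 days from 8 days later, and sampled 72 h after the last instillation. The labels give the sort as live CD45-EpCAM+ singlets and the study's account of the RNA-seq adds the exclusion of CD31+ cells. The gate takes all EpCAM+ epithelial cells of the lung together, and nothing in the labels says how many mice each library stands for, so that p-values measure the spread between these libraries.

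AT1 cells are the thin, wide cells through which gas passes from the alveolar air to the capillaries. Alveolar type 2 (AT2) cells, which make surfactant, renew them after injury, and the transcription factors NKX2-1 and GATA6 together with YAP, TAZ and their TEAD partners are known to shape the AT1 state. The 10 genes cover the surface and the inside of the AT1 cell: a receptor (Ager), membrane and channel proteins (Pdpn, Aqp5, Emp2, Clic5), the caveolar coat (Cav1), a nuclear cofactor (Hopx), Rtkn2, and secreted factors (Igfbp2, Vegfa).

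The libraries were not alike beyond their groups, and these differences touch every comparison that follows. Total counts were 10476829 to 17707000 at steady state and 9654825 to 17878442 after HDM, but 6 predicted genes took between 0.0106% and 88.2% of the counts of an HDM library, and 1180756 to 16447855 protein-coding counts remained outside them. A count of 3 corresponded to between 0.107 and 1.36 CPM (protein-coding counts scaled to a common library size, TMM) after HDM and to 0.138 to 0.213 at steady state. The lowest count of any of the 10 genes in any library was 41, so all of them were measured in all 22 libraries. Ahr was at 6.38 to 12.3 CPM in WT at steady state and at 15.5 to 20.1 in the libraries labelled AhR-/-. After HDM it was at 9.62 to 20.0 in WT and at 12.8 to 25.5 in those labelled AhR-/-. Cyp1b1 was at 0.644 to 1.91 CPM in WT at steady state and at 3.62 to 5.89 in the libraries labelled CYP1B1-/-, and after HDM at 0.897 to 2.31 and 4.98 to 13.5. Neither targeted gene was lower in the libraries that carry its label. The counts are summed over the whole gene, which does not tell whether the deleted part was read.

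Y-linked reads split the libraries in a way that the groups do not. Ddx3y was at 19.7 to 99.8 CPM in all 10 steady-state libraries, at 67.3 and 69.6 in the HDM libraries labelled AhR-/- replicates 3 and 4, and between 0 and 0.0859 elsewhere after HDM (10 libraries). The states were also counted in separate tables, named as separate runs, so that state and run cannot be told apart in any genotype. For WT and CYP1B1-/- the Y-linked reads cannot be told apart from them either. Leukocyte RNA moved with state too. The summed level of 24 hematopoietic genes, of which at least 20 were above 3 counts in each library, was 268 to 537 CPM at steady state, and after HDM 2162 to 7006 in WT, 437 to 7003 in the libraries labelled CYP1B1-/- and 319 to 1490 in those labelled AhR-/-. Csf1r alone was at 197 to 276 CPM in WT and 229 to 274 in AhR-/- at steady state, and at 58.6 to 195 and 64.5 to 109 after HDM. The sums therefore understate the rise of the others. From steady state to HDM in AhR-/- without replicates 3 and 4, 23 of the 24 had positive log2 changes, with a median of 5.20. Ptprc, which encodes the CD45 that the sort excluded, was at 2.02 to 52.6 CPM at steady state and at 14.8 to 669 after HDM. The summed level of 10 endothelial genes stayed between 9.90 and 44.0 CPM. Epcam, the marker the sort was set on, was present in every library at 68.2 to 312 CPM.

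AhR binds the xenobiotic response element (XRE), whose core is GCGTG, and HIF1 binds a hypoxia element with the related core ACGTG. The 250 bases before each annotated start were searched on both strands for these cores and for the TEAD element GGAATG, in the RefSeq promoters of GRCm38.p6, which hold an entry for 9 of the 10 genes (13 promoters) and none for Rtkn2. The XRE core was found in 4 of the 13 promoters and in 28.2% of all 32851. The hypoxia core was found in 7 of the 13, belonging to 6 genes, and in 16.6% of all. The TEAD element was found in 0 of the 13 and in 12.6% of all. The windows with an XRE core are shown because the study deleted the receptor that binds it. The match is in capitals (CACGC is the core on the opposite strand), with 12 bases on each side and letters 5′ to 3′ along the gene:
Igfbp2, chr1:72824313-72824341, + strand, 155 bases before the start: gtgggcgagtggGCGTGtgcacaagcacg
Igfbp2, chr1:72824336-72824364, + strand, 132 bases before the start: agcacgtgccctCACGCaagagtgcgggg
Aqp5, chr15:99590837-99590865, + strand, 179 bases before the start: aggagagcccagCACGCacgtcgaccagg
Aqp5, chr15:99590921-99590949, + strand, 95 bases before the start: gtctacactgccGCGTGggtcacgtggcc
Hopx, second start, chr5:77095293-77095321, - strand, 42 bases before the start: gcggcccgggagGCGTGcccacggcgacg
Vegfa, second start, chr17:46025365-46025393, - strand, 218 bases before the start: aagccctggagtGCGTGcccacgtcagag
The Igfbp2 windows lie outside the annotated genes of GENCODE M21. Both Aqp5 windows lie in an annotated untranslated exon of Aqp5, the Hopx window in an exon of the antisense gene Hopxos, and the Vegfa window in coding sequence of Vegfa. Near the second of the Aqp5 windows and between those of Igfbp2 stands the palindrome that holds the hypoxia core on both strands, as it does in Hopx and in Pdpn (chr4:143299691-143299719, - strand, actgtttactgcACGTGgcccccttttct). A match of such short letters is a description and no binding site.

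At steady state, ECs carried these genes at high levels, led by Ager. Per kb of exon, Ager was at 6443 ± 437 CPM (SD, n = 4) in WT, and Cav1 followed at 1556 ± 223. Then came Igfbp2 at 583 ± 159, Pdpn at 461 ± 116, Aqp5 at 410 ± 72.1, Emp2 at 396 ± 78.1, Clic5 at 386 ± 72.6 and Rtkn2 at 282 ± 55.6 CPM per kb, and neighbours in this run of 6 overlapped. Hopx and Vegfa were the lowest, at 46.4 ± 10.9 and 35.7 ± 6.63 CPM per kb, and overlapped each other but not Rtkn2. The order was led by Ager and Cav1 in all 6 groups. In sum, the 10 genes took 28137 to 35677 CPM of a WT library. AT2 genes were also present: 10 of them summed to 2488 to 5516 CPM in WT, and all 10 were above 3 counts in every library.

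Among the genes of the AT1 surface, the highest WT library was 1.17 times the lowest for Ager and 1.79 times for Pdpn. Ager (ENSMUSG00000015452, chromosome 17, 34597862 to 34600936, GRCm38), which encodes the receptor for advanced glycation end products (RAGE), was at 14158, 12695, 13448 and 14874 CPM in WT replicates 1 to 4 and at 13831, 14020 and 15191 CPM in the libraries labelled AhR-/-. These values overlapped. In the libraries labelled CYP1B1-/- it was at 7036, 17157 and 13459 CPM, of which replicate 2 was the lowest steady-state library. Pdpn (ENSMUSG00000028583, chromosome 4, 143267431 to 143299564), a mucin-type membrane protein, was at 631 to 1132 CPM in WT and at 834 to 867 in the libraries labelled AhR-/-. Aqp5 (ENSMUSG00000044217, chromosome 15, 99590782 to 99594829), a water channel, was at 911 to 1312 CPM in WT and at 946 to 1079 in the libraries labelled AhR-/-. Emp2 (ENSMUSG00000022505, chromosome 16, 10281749 to 10313968), a tetraspan membrane protein, and Clic5 (ENSMUSG00000023959, chromosome 17, 44188584 to 44280172), which links membranes to the cytoskeleton, were at 2627 to 4278 and 2661 to 4115 CPM in WT.

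Cav1 (ENSMUSG00000007655, chromosome 6, 17306335 to 17341452), the coat protein of caveolae, was at 4711 to 6317 CPM in WT and at 4882 to 7092 in the libraries labelled AhR-/-. Rtkn2 (ENSMUSG00000037846, chromosome 10, 67979570 to 68059740) was at 1297 to 1985 and 1773 to 2125 CPM. Hopx (ENSMUSG00000059325, chromosome 5, 77086988 to 77115121), a homeodomain protein without DNA binding of its own, was at 49.5 to 89.1 and 64.2 to 73.0 CPM. Of its exon bases, 27.2% are shared with Hopxos on the opposite strand, which was counted at 0 to 2.76 CPM, and the counting is not stated to use strand. Igfbp2 (ENSMUSG00000039323, chromosome 1, 72824503 to 72852474), a secreted binder of insulin-like growth factors, was at 781 to 1462 CPM in WT and at 1085 to 1276 in the libraries labelled AhR-/-. Vegfa (ENSMUSG00000023951, chromosome 17, 46016993 to 46032369), the growth factor that maintains the alveolar capillaries, was at 113 to 178 CPM in WT and at 138 to 186 in the libraries labelled AhR-/-.

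**Figure D1:**
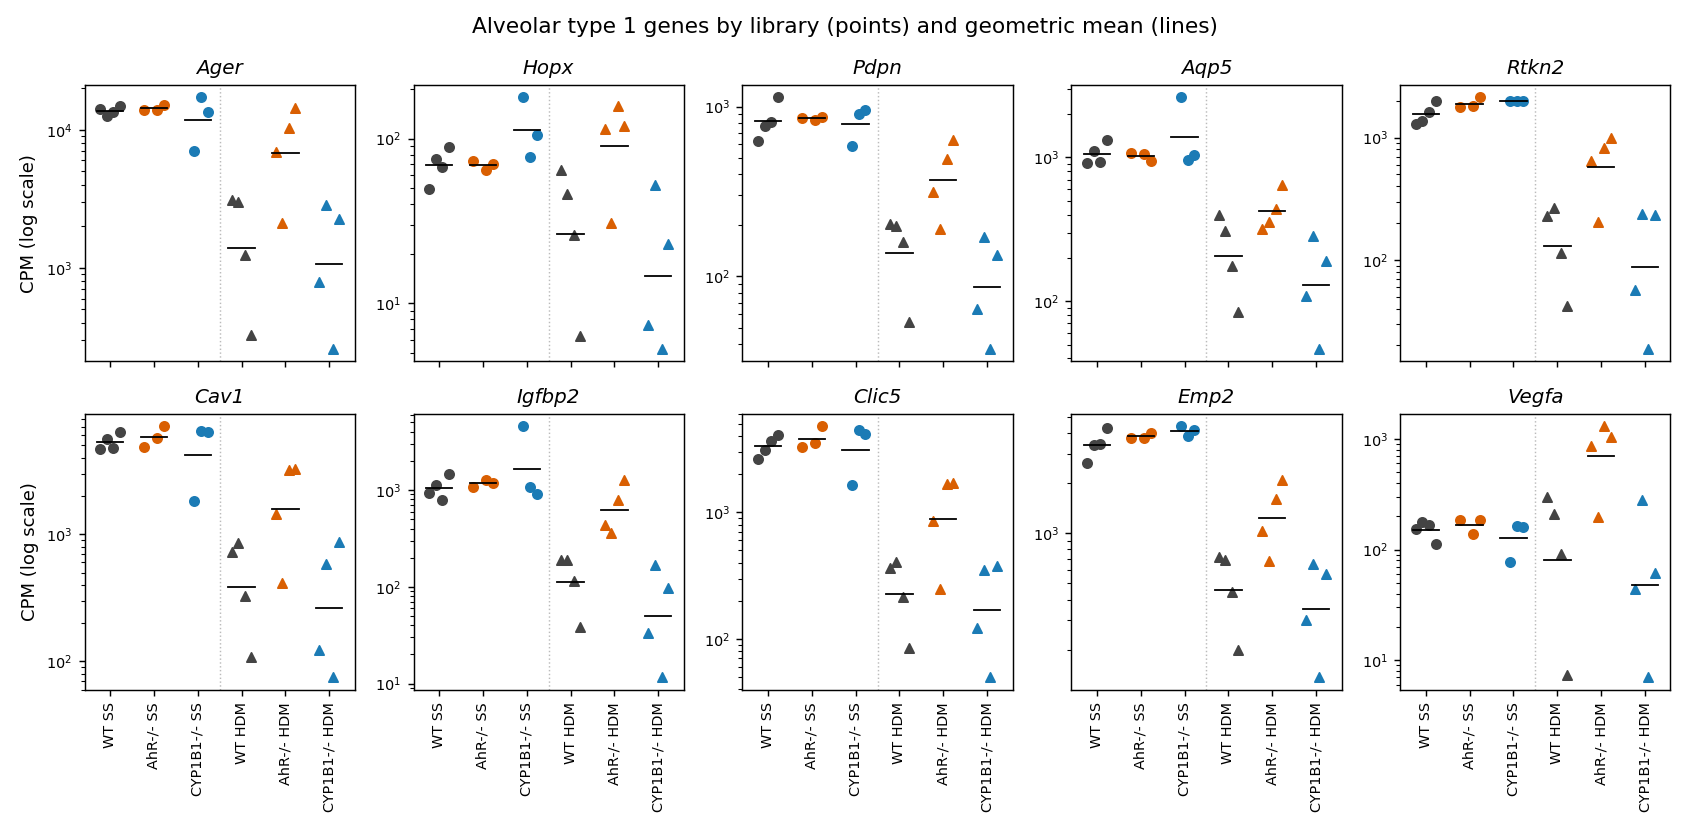
CPM of each of the 10 genes on a log axis, 1 point per library (replicates from left to right) and a line at the geometric mean, for WT (grey), AhR-/- (orange) and CYP1B1-/- (blue) at steady state (SS, circles) and after HDM (triangles). Steady-state libraries lie close together except CYP1B1-/- replicate 2, while HDM libraries spread widely, for Ager from 260 to 14492 CPM.

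In the libraries labelled AhR-/-, no difference of the AT1 genes from WT was detectable at steady state. By the quasi-likelihood test of edgeR, with a Benjamini-Hochberg adjusted p of at most 0.05 to pass, 0 of the 10 passed, where 0% of 15547 genes did, and 0 of the 10 had an unadjusted p under 0.05 (1.69% of all genes). Their log2 fold changes lay between -0.07 (Aqp5) and 0.26 (Rtkn2), with a median of 0.11 and standard errors of 0.17 (Rtkn2) to 0.47 (Igfbp2), and all 10 genes overlapped between the groups. The likelihood ratio test, DESeq2 and voom with sample weights also called 0 of them.

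In CYP1B1-/- against WT, 0 of the 10 passed, where 0.0129% of genes did, and 1 had an unadjusted p under 0.05 (5.8% of all genes). It was Hopx, with a log2 change of 0.73 ± 0.27 (SE, edgeR adjusted p = 0.822), at 178, 77.1 and 106 CPM in the libraries labelled CYP1B1-/-. A single library stood apart here. CYP1B1-/- steady state replicate 2 had Igfbp2 at 4580 CPM, Aqp5 at 2605 and Hopx at 178, above all other libraries of the study, but Cav1 at 1811, Clic5 at 1657, Pdpn at 587 and Vegfa at 77.8, below all others at steady state, while Rtkn2 at 1998 and Emp2 at 4398 were near the rest. Its Sftpc level of 295 CPM was also the lowest, its Epcam level of 287 CPM the highest at steady state, and its Ddx3y level of 19.7 CPM the lowest at steady state. The log2 changes of Igfbp2 and Aqp5, 0.99 and 0.48, became -0.19 and -0.17 without it, and that of Hopx became 0.30. Between AhR-/- and CYP1B1-/-, 0 of the 10 passed, where 0.00643% of genes did, and Hopx alone had an unadjusted p under 0.05 (4.23% of all genes), being lower in every library labelled AhR-/-. The likelihood ratio test, DESeq2 and voom with sample weights also called 0 of the 10 in both comparisons.

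After HDM, 1 of the AT1 genes, Igfbp2, was called higher in the libraries labelled AhR-/- than in WT, and 9 of the 10 overlapped between the groups. All 10 log2 changes were positive, from 0.88 (Aqp5) to 2.53 (Vegfa), with a median of 2.03 against -0.0017 over all 14161 genes tested. Over all genes, 22.1% passed in either direction and 9.22% were higher. An unadjusted p under 0.05 was found for 8 of the 10 and for 38.8% of all genes. In these bulk samples, a different number of AT1 cells and a different amount of AT1 RNA per cell cannot be told apart.

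Igfbp2 was at 190, 190, 115 and 38.2 CPM in WT replicates 1 to 4 and at 431, 359, 781 and 1261 in the libraries labelled AhR-/-. Each of the latter was above each of the former, which held for 1 of the 10 genes and for 9.6% of all genes. The log2 change was 2.42 ± 0.78 (SE, edgeR adjusted p = 0.0435), or 5.36-fold. This call rested on most libraries: 0 of the 10 genes passed without AhR-/- replicate 1, 3 or 4 or without WT replicate 1, 3 or 4. With either replicate 2 left out Igfbp2 still passed, alone without that of WT and among 4 genes without that of AhR-/-. The likelihood ratio test of edgeR called 7 of the 10 (29.1% of all genes), DESeq2 8 (32.4%) and limma's voom with sample weights, which gives deviating libraries less weight, 10 (47.1%).

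Ager was at 3112, 3014, 1244 and 328 CPM in WT and at 6905, 2113, 10375 and 14492 in the libraries labelled AhR-/-. Only AhR-/- replicate 2 lay within the WT range, and replicates 3 and 4 were near the steady-state level. The log2 change was 2.14 ± 0.90 (SE, edgeR adjusted p = 0.0959). Vegfa was at 299, 210, 90.5 and 7.31 CPM in WT and at 861, 198, 1306 and 1039 in the libraries labelled AhR-/-, with a log2 change of 2.53 ± 1.11 (SE, edgeR adjusted p = 0.11). It too overlapped through AhR-/- replicate 2. Aqp5 had the smallest difference, with 397, 307, 176 and 84.2 CPM in WT and 318, 352, 440 and 646 in the libraries labelled AhR-/-, a log2 change of 0.88 ± 0.57 (SE, edgeR adjusted p = 0.268). The remaining 6 genes had log2 changes of 1.41 (Emp2) to 2.08 (Clic5) and adjusted p-values of 0.0616 (Clic5) to 0.152 (Hopx), and overlapped between the groups.

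Within the AhR-/- group, replicates 3 and 4, the ones with Y-linked reads, were the highest pair of all 12 HDM libraries for each of the 10 genes. They also had the lowest hematopoietic levels of the 12, 342 and 319 CPM, against 1433 and 1490 in replicates 1 and 2. The 6 predicted genes took 88.2% and 76.5% of their counts, which left 1180756 and 2856737 protein-coding counts. These shares were also high in WT replicate 2 (83.1%) and in CYP1B1-/- replicates 1 and 2 (79.8% and 83.6%), and were 0.0106% and 57.0% in AhR-/- replicates 1 and 2. Without replicates 3 and 4, all 10 fold changes stayed positive, their median was 0.99, and 0 of the 10 and 0 of all genes passed. The log2 change of Igfbp2 was then 1.52 and that of Ager 1.18. With the hematopoietic score as a covariate the median was 0.45, with 0 called and Aqp5 at -0.17, and with the Y-linked score it was 0.96, with 0 called. The part of either in the difference was not tested. The plot of AT1 against leukocyte and AT2 genes shows where each library stood.

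**Figure D2:**
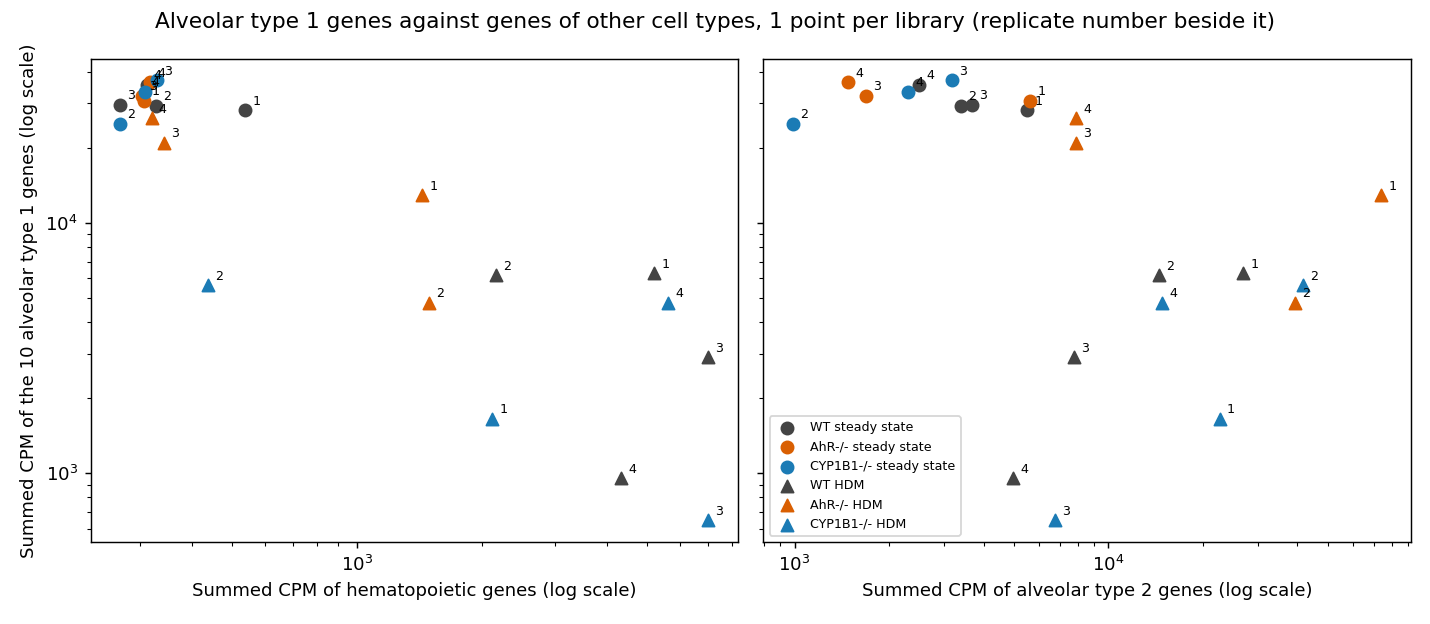
Summed CPM of the 10 AT1 genes (vertical, log axis) against summed CPM of 24 hematopoietic genes (left) and of 10 AT2 genes (right, both log axes), 1 point per library with its replicate number, coloured by genotype, circles for steady state and triangles for HDM. AhR-/- HDM replicates 3 and 4 lie beside the steady-state libraries in the left panel, with hematopoietic sums of 342 and 319 CPM, and the remaining HDM libraries lie lower in AT1 genes. Csf1r alone gave 197 to 276 CPM of the steady-state sums in WT and 229 to 274 in AhR-/-. Ptprc was at 27.8 and 14.8 CPM in AhR-/- HDM replicates 3 and 4, against 3.33 to 7.67 in AhR-/- at steady state.

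In the libraries labelled CYP1B1-/- against WT after HDM, 0 of the 10 passed, where 0% of genes passed, 0 had an unadjusted p under 0.05 (1.65% of all genes), and all 10 log2 changes were negative, from -0.72 (Igfbp2) to -0.23 (Clic5), with a median of -0.41. Their standard errors were 0.55 (Pdpn) to 1.05 (Vegfa), and the likelihood ratio test, DESeq2 and voom with sample weights called 0 as well. Ager was at 792, 2861, 260 and 2247 CPM in these libraries and Igfbp2 at 33.0, 169, 11.6 and 96.8, and both overlapped WT. CYP1B1-/- replicate 3 was the lowest HDM library for all 10 genes, and WT replicate 4 was in the lowest pair for 9 of them.

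Set directly against CYP1B1-/- after HDM, the libraries labelled AhR-/- had positive fold changes for all 10 genes, with log2 values of 1.41 (Aqp5) to 3.15 (Igfbp2) and a median of 2.29. None passed (0 of 10), where 0.00706% of genes did, while 10 of 10 had an unadjusted p under 0.05, as did 29.9% of all genes. The lowest adjusted p was 0.0638 (edgeR), for Igfbp2. The likelihood ratio test called 9 of the 10 (17.4% of all genes), DESeq2 10 (20.5%) and voom with sample weights 10 (30.4%). Pdpn, Aqp5, Igfbp2 and Emp2 were higher in every library labelled AhR-/- than in any labelled CYP1B1-/-, so 4 of 10 genes did not overlap, where 5.33% of all genes were placed so.

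From steady state to HDM, most AT1 genes were lower in WT. The test called 8 of the 10 lower, where 38.4% of 16639 genes passed and 19.4% were lower, and the same 8 were lower in every HDM library than in any steady-state library, which held for 21.2% of genes. Their log2 changes ran from -3.66 (Clic5, SE 0.66, edgeR adjusted p = 0.000139) to -2.14 (Aqp5). Ager was lower by a log2 change of -2.84 ± 0.73 (SE, edgeR adjusted p = 0.00333) and Cav1 by -3.41. Hopx, at 64.5, 46.2, 25.9 and 6.28 CPM after HDM, overlapped steady state and did not pass (-0.98 ± 0.62, SE, edgeR adjusted p = 0.23). Vegfa had a log2 change of -0.01 ± 0.82 (SE, edgeR adjusted p = 0.992): replicates 1 and 2 were above every steady-state WT library, and replicates 3 and 4 below.

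In the libraries labelled CYP1B1-/-, 9 of the 10 were called lower, Hopx included, where 33.4% of genes passed and 17.9% were lower. These 9 did not overlap between the states, which held for 17.3% of genes. Igfbp2 had a log2 change of -4.83 ± 0.77 (SE, edgeR adjusted p = 6.63e-05), the largest of the 10 with all libraries. Without the steady-state replicate 2 it was -3.46, behind Clic5 at -4.06, Cav1 at -3.76 and Rtkn2 at -3.66, and Hopx no longer passed (-1.87, edgeR adjusted p = 0.0622). Vegfa again did not pass, at -0.45 ± 0.88 (SE, edgeR adjusted p = 0.766), and its value ran from -1.67 (without HDM replicate 2) to 0.0189 (without HDM replicate 1) when 1 library was left out and turned to 1.48 and 0.81 with the hematopoietic and the Y-linked score as covariates. Leukocyte and Y-linked reads moved with state in both genotypes, so the state and these scores cannot be told apart. With the hematopoietic score as a covariate 0 of the 10 genes passed in WT and 0 in CYP1B1-/-, and with the Y-linked score 0 and 2. The shares of all genes in these fits are not given here, so the counts are not read as a result about the 10 genes.

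In the libraries labelled AhR-/-, 1 of the 10, Emp2, was called lower, where 20.6% of genes passed and 10.1% were lower. State and run cannot be told apart here either. Emp2 was at 3706, 3712 and 4022 CPM at steady state and at 1028, 684, 1615 and 2083 after HDM, a log2 change of -1.50 ± 0.50 (SE, edgeR adjusted p = 0.0363). This call ended without any single library but HDM replicate 4, and RLE and upper-quartile normalization each left 0 of the 10. A total of 6 genes were lower in every HDM library, where 23.2% of all genes were: Pdpn, Aqp5, Rtkn2, Cav1, Clic5 and Emp2. Without replicates 3 and 4, 3 of the 10 were called lower, where 23.6% of genes passed in either direction, and the median log2 change was -1.65 in place of -1.14.

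In the libraries labelled AhR-/-, Vegfa had a positive fold change, with state and run again not to be told apart. Every HDM library, at 861, 198, 1306 and 1039 CPM, was above every steady-state library, at 184, 138 and 186, and 12.7% of genes were placed so. The log2 change was 2.33 ± 0.95 (SE, edgeR adjusted p = 0.0878), which did not pass. Hopx had a log2 change of 0.60 ± 0.68 (SE) and overlapped. The interaction of genotype and state, which asks whether the HDM change itself differed from that in WT, was called for 0 of the 10 in AhR-/- and 0 in CYP1B1-/- (0% of all genes in both). In AhR-/- all 10 interaction terms were positive with a median of 1.81, and 3 had an unadjusted p under 0.05 (Igfbp2, Clic5 and Pdpn), as did 18.3% of all genes. Voom with sample weights called all 10 and 30.3% of all genes, and the likelihood ratio test and DESeq2 called 0 of the 10. In CYP1B1-/- all 10 were negative with a median of -0.56 and 0 had an unadjusted p under 0.05 (2.3% of all genes), with 0 called by all 3 of those tools.

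**Figure D3:**
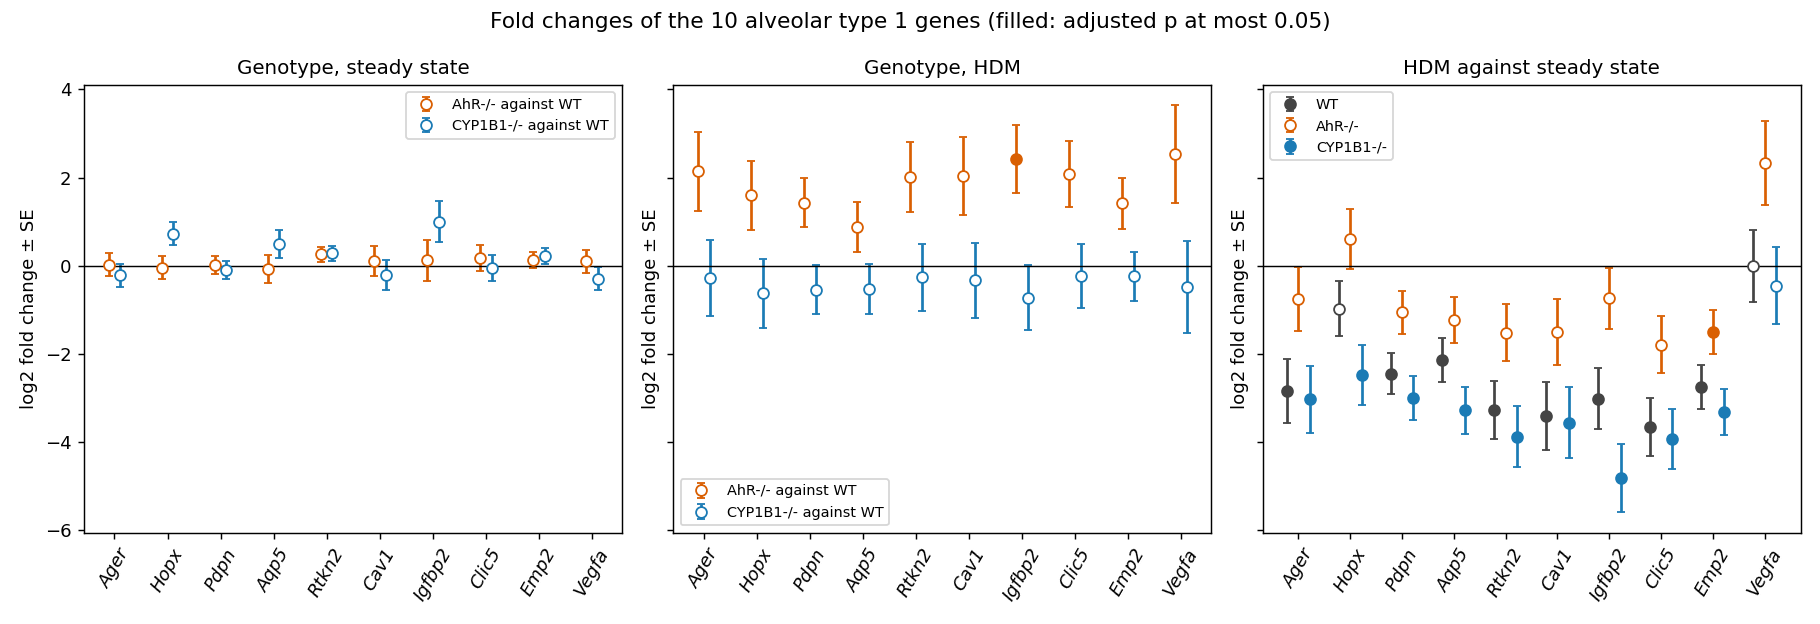
Log2 fold changes of the 10 AT1 genes with standard errors from edgeR's quasi-likelihood test, for genotype at steady state (left), genotype after HDM (middle) and HDM against steady state within each genotype (right), filled where the adjusted p is at most 0.05. Steady-state values lie between -0.29 and 0.99, with Igfbp2 and Hopx in CYP1B1-/- the highest (0.99 and 0.73), all AhR-/- values after HDM lie above 0 with Igfbp2 alone filled, and Vegfa did not pass in any genotype in the right panel, with -0.01 in WT, 2.33 in AhR-/- and -0.45 in CYP1B1-/-.

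The proportions among the 10 genes were compared within libraries. To describe them free of library scaling, each gene was expressed as log2 CPM minus the mean log2 CPM of the other 9 in the same library. Vegfa lay at -3.43 ± 0.50 (SD, n = 4) in WT at steady state, at -3.39 ± 0.23 (n = 3) in AhR-/- and at -3.87 ± 0.59 (n = 3) in CYP1B1-/-. After HDM it lay at -1.34 ± 1.28 in WT, -0.08 ± 0.47 in AhR-/- and -1.46 ± 1.05 in CYP1B1-/- (n = 4 each). All HDM libraries but WT replicate 4, at -3.20, were above all steady-state libraries. Hopx went from -4.69 ± 0.19 to -3.13 ± 0.28 in WT and from -4.82 ± 0.13 to -3.35 ± 0.43 in AhR-/-, and from -4.05 ± 0.76 to -3.35 ± 0.49 in CYP1B1-/-, where replicate 2 at steady state, at -3.23, overlapped.

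Clic5, Cav1 and Rtkn2 lay lower against the rest after HDM. Clic5 went from 1.54 ± 0.16 to 0.33 ± 0.30 in WT, from 1.62 ± 0.23 to 0.31 ± 0.40 in AhR-/- and from 1.27 ± 0.80 to 0.55 ± 0.28 in CYP1B1-/-. Cav1 went from 2.28 ± 0.09 to 1.17 ± 0.22 in WT and from 2.29 ± 0.22 to 1.24 ± 0.51 in AhR-/-, and Rtkn2 from 0.30 ± 0.15 to -0.56 ± 0.20 and from 0.49 ± 0.06 to -0.38 ± 0.19. In WT and AhR-/- these 3 genes did not overlap between the states, and in CYP1B1-/- Rtkn2 did not either (0.54 ± 0.09 to -0.49 ± 0.40). Ager also lay lower after HDM in WT, from 3.81 ± 0.21 to 3.24 ± 0.28 with no overlap, and overlapped in AhR-/- and CYP1B1-/-. In AhR-/- alone Emp2 lay lower without overlap, from 1.61 ± 0.02 to 0.86 ± 0.35, and in CYP1B1-/- alone Igfbp2 did, from 0.24 ± 1.51 to -1.39 ± 0.29. Aqp5 lay higher after HDM in WT, from -0.31 ± 0.10 to 0.17 ± 0.39 with no overlap, and overlapped in AhR-/- and CYP1B1-/-. Pdpn overlapped between the states in each genotype, with group means of -1.08 to -0.49. After HDM, AhR-/- differed from WT in this balance most for Vegfa, and Aqp5 stood lower in AhR-/- (-0.87 ± 0.80) than in WT (0.17 ± 0.39), with overlap in both. These are descriptions of shared libraries, with no test, and state and run cannot be told apart in them. The same balance is drawn in the plot of each gene against the other 9.

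**Figure D4:**
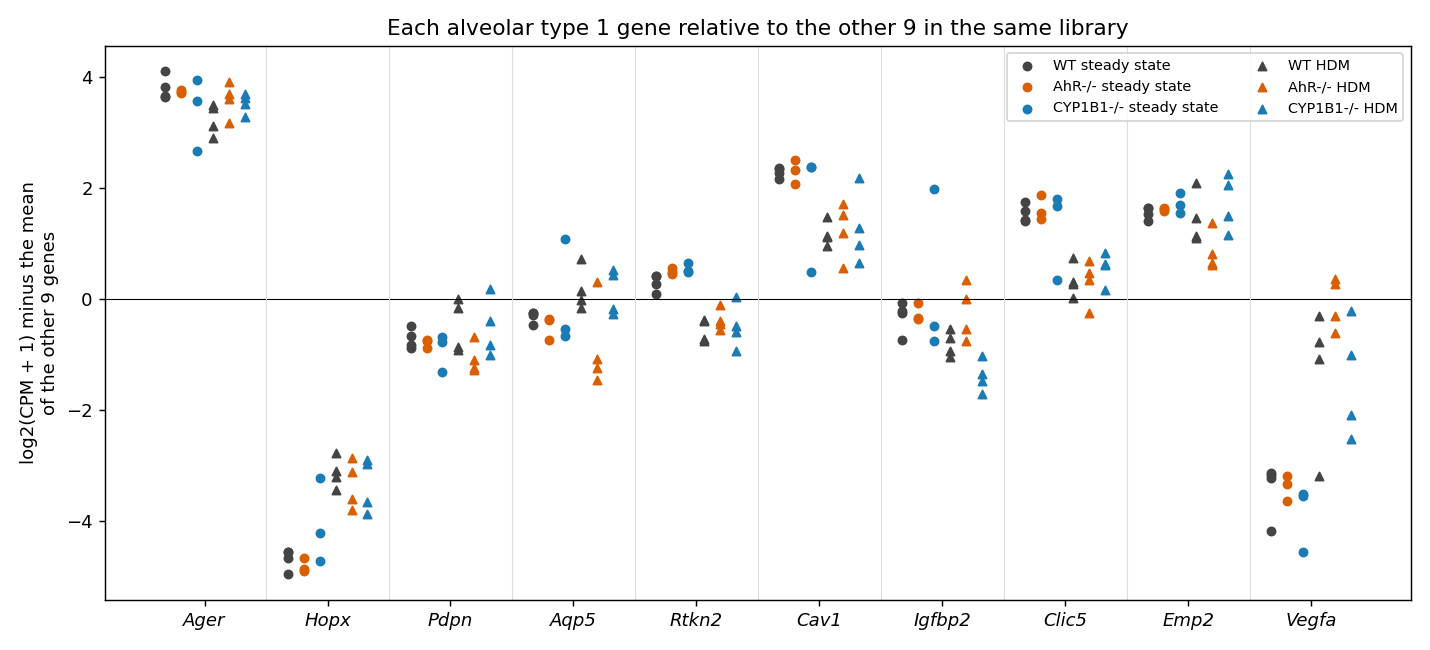
Each AT1 gene as log2 CPM minus the mean log2 CPM of the other 9 genes in the same library (1 point per library), for the 3 genotypes (colours) at steady state (circles) and after HDM (triangles). The + 1 in the axis label was not added to the values. In WT and AhR-/-, Hopx and Vegfa lie higher after HDM, except Vegfa in WT replicate 4 (-3.20), and Clic5, Cav1 and Rtkn2 lie lower.

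Across HDM libraries the 10 genes varied together, with a Pearson r of 0.95 (Aqp5) to 0.99 (Emp2) between each gene and the mean of the other 9 (n = 12 libraries, log2 CPM). At steady state it was -0.25 (Aqp5) to 0.75 (Rtkn2) (n = 10 libraries). The libraries share their scaling and their mixture of cells, so this is a description. The genes whose pattern was most like that of the 10 in both states, by the smaller of both correlations with their mean, among 7416 genes at 10 CPM or more, were Stard13 (0.96), Scamp1 (0.95), Scnn1b (0.94), Mal2 (0.94), Tacc2 (0.93), Eps8l2 (0.92), Fermt2 (0.92) and Fhl1 (0.92). They were picked on these same libraries, so no comparison of groups is given for them.

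A further 24 genes known from AT1 cells were examined. In AhR-/- against WT at steady state, 0 of 24 passed, with a median log2 change of 0.09. After HDM, 9 of 24 passed, all higher (9.22% of all genes were called higher), and all 24 fold changes were positive with a median of 2.01. They included Sema3a, a guidance factor, at 2.42 (standard error 0.76), Akap5, a kinase anchor, at 2.11 (0.65), Limch1, an actin regulator, at 2.78 (0.83), Cryab, a small heat shock protein, at 2.79 (0.81), and Ndnf and Mettl7a1 at 2.06 (0.64) and 2.66 (0.61). Timp3, an inhibitor of matrix proteases and the most abundant of the 24 in the mean of all libraries, was at 364 ± 206 CPM in WT and 1340 ± 925 in AhR-/- (SD, n = 4 each), and did not pass. In HDM against steady state, all 24 were called lower in WT (median -2.72), all 24 in CYP1B1-/- (median -3.16) and 7 in AhR-/- (median -1.18), beside 19.4%, 17.9% and 10.1% of all genes. Without AhR-/- replicates 3 and 4, 0 of the 24 passed against WT after HDM, all 24 stayed positive and the median was 1.29.

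The regulators of alveolar fate were measured for 18 of 19 genes after HDM. In AhR-/- against WT, 8 were called higher (9.22% of all genes), among them Gata6 at 2.19 (standard error 0.52), Nkx2-1 at 2.21 (0.57), Tead1 at 2.60 (0.70) and the YAP target Ankrd1 at 1.83 (0.51). Lats1 and Lats2, the kinases that restrain YAP, were called higher as well, at 1.26 (0.30) and 1.89 (0.43). Stk4 alone was called lower (12.9% of all genes), at -1.40 (0.43), and was named after its value was seen. In HDM against steady state, 11 of 19 were called lower in WT and 2 higher, where 38.4% of all genes passed, and 3 lower and 2 higher in AhR-/-, where 20.6% passed, with Yap1 at 1.50 (0.51) and Cebpa, a factor that AT2 cells and leukocytes express, at 4.25 (0.78) among the latter. Ccn1, a YAP target and the most abundant of the list in the mean of all libraries, went from 1004 ± 269 to 127 ± 58.6 CPM in WT (SD, n = 4). Without AhR-/- replicates 3 and 4, 0 of 19 passed against WT after HDM, with a median of 1.35.

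Partners and relatives of single genes were examined next. Of 6 caveolins and cavins tested beside Cav1, 3 were called higher in AhR-/- than WT after HDM (9.22% of all genes): Cav2 at 2.33 (standard error 0.75), Cavin1 at 1.31 (0.43) and Cavin3 at 1.95 (0.53). All 6 were called lower after HDM in WT and in CYP1B1-/-, and 3 in AhR-/-, beside 19.4%, 17.9% and 10.1% of all genes. Of 11 genes of the insulin-like growth factor system beside Igfbp2, 2 were called higher in AhR-/- (9.22% of all genes), Igfbp5 at 2.13 (0.70) and Igfbp7 at 2.06 (0.67), and 0 lower (12.9%). Of 4 aquaporins tested beside Aqp5, 1 was called higher (9.22% of all genes) and 2 lower (12.9%). Aqp4, which mouse AT1 cells express, was higher at 2.66 (0.54), at 1.98 to 5.33 CPM in WT and 7.56 to 30.5 in AhR-/-. Aqp3 and Aqp9 were lower, at -3.80 (0.78) and -1.83 (0.55), and both were called higher after HDM in WT (19% of all genes), at 5.27 (0.73) and 2.03 (0.53). Both are aquaglyceroporins that leukocytes also express.

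For Vegfa, other genes of its system were examined. Of 9 ligands, receptors and hypoxia factors tested, 0 were called higher in AhR-/- than WT after HDM (9.22% of all genes) and 2 lower (12.9%): Flt1, a receptor and decoy for VEGF, at -1.68 (0.56) and Hif1a at -1.08 (0.33). Epas1, which encodes HIF2A, was called higher after HDM in WT, AhR-/- and CYP1B1-/- (19%, 10.6% and 15.5% of all genes), at 1.56 (0.56), 2.40 (0.64) and 2.23 (0.63). For RAGE, 7 genes of its ligands and adaptor were tested in AhR-/- against WT, with 1 called higher (9.22% of all genes) and 1 lower (12.9%). The ligand gene S100a4 was called lower in AhR-/- than WT at -3.62 (1.13) and higher after HDM in WT at 7.95 (1.14), and App, whose product yields another ligand, was called higher in AhR-/- at 1.36 (0.37). Of 15 partners and relatives of Pdpn, Clic5, Emp2 and Rtkn2, 4 were called lower in AhR-/- (12.9% of all genes) and 0 higher (9.22%). The 4 were Clic1, Clic4, Emp3 and Slc9a3r1, at -1.82, -2.02, -2.42 and -1.38. Clic1 and Emp3 were called higher after HDM in WT, at 4.44 and 5.22. S100a4, Clic1 and Emp3 are also expressed in leukocytes, and 10 of the 24 hematopoietic genes were called lower in AhR-/- than WT (12.9% of all genes), with a median of -2.15. The part of these cells in the levels was not tested.

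Other epithelial genes placed the AT1 genes among their neighbours. Of 10 AT2 genes, 0 were called in AhR-/- against WT after HDM, where 22.1% of all genes passed, and their median was 0.37. Without AhR-/- replicates 3 and 4 the AT2 median was 1.11, with all 10 positive, beside 0.99 for the 10 AT1 genes, and 0 of all genes passed. From steady state to HDM, 5 AT2 genes were called higher in WT, 7 in AhR-/- and 8 in CYP1B1-/-, beside 19%, 10.6% and 15.5% of all genes. The ratio of Ager to Sftpc, which encodes surfactant protein C, was 3.95 to 23.9 in the steady-state libraries. After HDM it was 0.0744 to 0.43 in WT, in CYP1B1-/- and in AhR-/- replicates 1 and 2, and 1.73 and 3.04 in AhR-/- replicates 3 and 4. Of 4 club cell genes and 5 ciliated cell genes, 1 each was called higher in AhR-/- than WT (9.22% of all genes), Cyp2f2 at 1.73 and Ccdc153 at 1.94. The club cell genes summed to 842 CPM on average in WT and 4923 in AhR-/- (195 to 1825 and 1686 to 8070), beside 4085 and 16202 for the 10 AT1 genes, and their part in the difference was not tested. Of 6 genes of the transitional state between AT2 and AT1 cells, 0 were called in AhR-/- against WT (22.1% of all genes). After HDM, 1 of the 6 was called higher in WT and 2 lower (19% and 19.4% of all genes), and 3 higher in AhR-/- (10.6%). Cldn4, a tight junction protein, was higher in WT at 4.00 (0.79) and in AhR-/- at 4.81 (0.90), and Krt8 and Krt19, the keratins of that state, lower in WT at -1.55 (0.37) and -2.68 (0.47). Among 8 mesenchymal and 3 mesothelial genes, 0 were called in AhR-/- against WT after HDM, and 1 of 8 endothelial genes was, Vwf, at -0.99, where 22.1% of all genes passed.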

How the data were processed

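RNA of sorted ECs was sequenced in 22 libraries after oligo-dT priming, template-switching amplification and tagmentation. The authors aligned the reads to mm10 with GSNAP and deposited raw counts per Ensembl 99 gene from featureCounts (2.0.0), in 1 table for steady state and 1 for HDM. Strand and multimapping settings are not given in the sources used here. Amplified reads carry no molecular identifiers, so counting error is a lower limit of the error.

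Groups came from the labels. Protein-coding genes (GENCODE M21, 21793 genes) that passed filterByExpr (minimum count 10, minimum total 15) were normalized by TMM. They were tested with edgeR 4.0.16 (R 4.3.3; robust quasi-likelihood, Benjamini-Hochberg adjusted p of at most 0.05), per table for genotypes and over all 22 libraries for state and interaction. CPM used TMM library sizes over all 22 libraries, per kb of exon where genes were compared. Alternatives were the likelihood ratio test, DESeq2 1.42.0, limma 3.58.1 (voom with sample quality weights), other normalizations and filters, covariates, a replicate block and left-out libraries. Scripts were tested on simulated counts. No library pair was a duplicate (highest r 0.995). The 10 genes and all gene lists were chosen with earlier results of these data known. From each other list were named the genes that passed, at most 6 by lowest p, and the most abundant one, and 8 genes by likeness to the 10. Promoter sequences are from RefSeq (GRCm38.p6).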

Additional observations from a re-analysis of the deposited data

Results flagged for a closer look

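Of 40 groups of 4 libraries (10 AT1 genes in 4 groups), 0 held a library whose gap to its neighbour exceeded Dixon's 95% critical value, where chance gives about 1 in 20. The 10 genes share their libraries, so these are not 40 independent tests, and nothing is concluded from the absence of flags. Groups of 3 libraries were not examined this way, and they include CYP1B1-/- steady state replicate 2, which stood apart. No interaction of genotype and state was called for any of the 10 genes by edgeR's quasi-likelihood test.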

How the results depend on the processing

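In AhR-/- against WT after HDM, where 1 of the 10 genes was called, the likelihood ratio test called 7, DESeq2 8, limma's voom with sample weights 10 and a fit of only the groups compared 3. The replicate block, the hematopoietic or the Y-linked score as a covariate, leaving out the AhR-/- libraries with Y-linked reads (chosen after seeing the data) and leaving out the lowest WT and CYP1B1-/- libraries (likewise) called 0 each, and leaving out 1 library gave 0 to 4. Over all genes, 3129 were called, against 4120, 4592 and 6669 by those tools and 1 with the block. In AhR-/- against CYP1B1-/-, where 0 were called, the tools called 9, 10 and 10, and leaving out 1 library gave 0 to 8. For HDM against steady state, the block called 4 in WT, 0 in AhR-/- and 0 in CYP1B1-/-, the hematopoietic covariate 0 in WT and 0 in CYP1B1-/-, and the Y-linked covariate 0, 0 and 2. Shares of all genes in the alternative fits of state are not given here, so their counts are not read as results about the 10 genes. In AhR-/-, where 1 was called, the likelihood ratio test and DESeq2 called 3, voom with sample weights 5, RLE, upper-quartile normalization and all gene classes 0, the groups alone 2, the set without Y-linked libraries 3, and leaving out 1 library 0 to 1. Voom with sample weights called 10 for the AhR-/- interaction. The cause was not tested.

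Signs turned as follows. Vegfa in WT, HDM against steady state, was at 0.0227 (DESeq2), 0.0217 (RLE), 0.0335 (unfiltered), 0.0934 (a minimum of 10 counts in each library), 0.096 (all gene classes), 0.0334 (without dominant predicted genes), 2.40 (hematopoietic covariate), 1.25 (Y-linked covariate), 0.0557 (only the groups compared) and 0.39 (lowest libraries left out), and -0.58 to 0.39 with 1 library out. In CYP1B1-/- it was at 0.0096 with at least 10 counts, 1.48 and 0.81 with the covariates, and -1.67 to 0.0189 with 1 library out. Aqp5 and Igfbp2 in CYP1B1-/- against WT at steady state were at -0.097 and -0.0457 by voom with sample weights, and at -0.17 to 0.77 and -0.19 to 1.44 with 1 library out. With the hematopoietic covariate, Aqp5 was at -0.17 in AhR-/- against WT after HDM, Hopx at 0.83 in WT, HDM against steady state, and Ager and Igfbp2 at 0.15 and 0.12 in AhR-/-.

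Replicate numbers did not pair the libraries throughout: same-numbered HDM libraries correlated at -0.40 to 0.71 (3 of 12 pairs over 0.1), and steady-state ones at -0.05 to 0.33 (2 of 8). Differently numbered ones correlated at -0.77 to 0.51 after HDM (16 of 36) and at -0.34 to 0.27 at steady state (4 of 25). The highest HDM values were same-numbered: replicates 2 and 3 of WT and CYP1B1-/- (0.71 and 0.67) and replicate 1 of WT and AhR-/- (0.57). Depth was lowest in AhR-/- HDM replicate 3, with 1180756 usable counts, but no AT1 gene fell below 41 counts in any library.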
